A study of Mus musculus with 32 samples.

Results

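A set of 10 genes for the antimicrobial and oxidative defence of the gut lining was followed through the distal colon of mice with and without Myd88. They were Slpi, Lcn2, Reg3b, Reg3g, Saa1, Saa3, Pigr, Duox2, Nos2 and Nox1, chosen by gene symbol, and each was read from the probe set of that symbol with the highest mean over 32 arrays. Of these 10 genes, 8 had a probe set in the platform annotation, and 6 of the 8 rose above the lowest deposited signal on at least 1 array. The table held 18193 genes in all. Duox2 and Nox1 had no probe set under their symbols in that annotation and were not analysed here.

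The groups were 10 treated KO, 10 treated WT, 6 untreated KO and 6 untreated WT mice, with 1 Affymetrix expression array of distal colon RNA per mouse. KO mice lacked Myd88 and had been backcrossed to the B6NCr background, on which the WT mice were also kept (strain C57 BL6NCr). Treated mice of 6 to 8 weeks received azoxymethane (AOM), a colon carcinogen, at 10 mg/kg intraperitoneally, and 1 week later dextran sodium sulfate (DSS), a polymer harmful to the colon epithelium, at 2% in drinking water for 3 days, and were then killed. No protocol, age or housing was given for untreated mice, so the regimen and other differences in handling cannot be told apart. The labels called the groups biological repeats and gave no sex, batch or array date.

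Epithelial cells of the colon hold bacteria at a distance with secreted proteins, with IgA carried into the lumen, and with oxidants made at the cell surface. Slpi is a secreted inhibitor of the neutrophil proteases elastase and cathepsin G that also acts on microbes. Lcn2 binds the siderophores with which bacteria take up iron, Reg3b and Reg3g are lectins that bind bacterial walls, and Saa1 and Saa3 are serum amyloid A proteins of the acute phase. Pigr carries dimeric IgA across the epithelium, Nos2 makes nitric oxide, and Duox2 and Nox1 make hydrogen peroxide and superoxide. Myd88 is the adaptor of most Toll-like receptors and of the IL-1 and IL-18 receptors, and Reg3g of the mouse small intestine is a known target of Myd88 signalling.

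The sequences before the start sites of Slpi, Lcn2 and Pigr are printed because Slpi and Lcn2 were called higher and Pigr lower in treated than in untreated KO mice and their windows hold matches to the motifs searched. Each is the RefSeq window of 250 bases before the annotated start (build GRCm38.p6), written 5′ to 3′ on the strand of the gene: Slpi chr2:164356508-164356757 on the minus strand, Lcn2 chr2:32387740-32387989 on the minus strand, and Pigr chr1:130826434-130826683 on the plus strand. Capitals mark matches, on either strand, to GGG and CC with 5 bases between them (NF-kappaB type), TTCNNNGAA (STAT type) or TTNNGNAAT (C/EBP type).
Slpi: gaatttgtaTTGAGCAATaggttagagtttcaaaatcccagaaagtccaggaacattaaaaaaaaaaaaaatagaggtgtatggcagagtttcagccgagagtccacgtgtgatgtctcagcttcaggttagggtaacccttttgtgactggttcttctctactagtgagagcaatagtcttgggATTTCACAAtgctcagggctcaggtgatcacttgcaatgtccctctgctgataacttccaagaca
Lcn2: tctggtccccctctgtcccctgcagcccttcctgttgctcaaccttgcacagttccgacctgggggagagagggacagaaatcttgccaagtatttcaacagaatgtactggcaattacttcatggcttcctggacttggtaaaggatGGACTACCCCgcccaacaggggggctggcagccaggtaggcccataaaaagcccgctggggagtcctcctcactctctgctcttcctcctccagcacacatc
Pigr: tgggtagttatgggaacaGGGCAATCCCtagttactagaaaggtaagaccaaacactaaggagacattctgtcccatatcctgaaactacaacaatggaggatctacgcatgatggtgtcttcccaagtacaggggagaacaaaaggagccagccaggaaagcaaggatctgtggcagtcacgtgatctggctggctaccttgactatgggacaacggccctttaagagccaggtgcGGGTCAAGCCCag
The Slpi window held 2 C/EBP-type matches, at -241 to -233 and at -65 to -57, where -1 is the base before the start. In the Lcn2 window there was 1 NF-kappaB-type match, at -102 to -93. Pigr had 3 NF-kappaB-type matches, of which those at -13 to -4 and -12 to -3 overlap, and the other lay at -232 to -223. Of 32851 mouse windows of the same length, 45.8% held the NF-kappaB-type letters, 10.2% the C/EBP-type and 7.02% the STAT-type letters, so the first of these is common. A match describes the letters and shows no binding. Saa3, also called higher in treated than in untreated KO mice, had 0 matches of the 3 types in its window, which is not printed. Of the 10 genes, 9 had a window in the RefSeq table.

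Deposited values were log2 probe set signals with a floor of 3.322 (a linear signal of 10) that held 18.7% to 23.9% of each array, and within groups the correlation of 2 arrays across genes was 0.935 to 0.985. Levels below are quantile-normalized log2 signals, and a gene was called where limma's p, adjusted by Benjamini-Hochberg across the 18193 genes, was under 0.05. Myd88 averaged 8.00 in treated KO and 8.46 in treated WT mice, a difference of -0.46 ± 0.09 (SE, adjusted p = 0.00104), and 7.67 in untreated KO and 8.40 in untreated WT mice (-0.73 ± 0.11, adjusted p = 0.000925). Which part of Myd88 was deleted is not in the labels, so this probe set may not test the deletion. The labelled tissue was borne out by a high mean of 11 colon epithelium markers, whose single levels are not given. This mean lay between 12.03 and 12.44 in treated KO, 11.58 and 12.15 in treated WT, 11.92 and 12.09 in untreated KO, and 12.01 and 12.13 in untreated WT mice. Squamous epithelium genes, foreign to the colon, were high on some arrays: the mean of 13 of them ran from 4.34 to 8.11 in treated KO, 4.26 to 11.36 in treated WT, 4.07 to 8.40 in untreated KO and 4.11 to 5.92 in untreated WT mice. So were skeletal muscle genes, also foreign. The mean of 8 of these ran from 4.90 to 9.71 in treated KO, 4.90 to 10.28 in treated WT, 4.56 to 8.38 in untreated KO and 4.62 to 9.49 in untreated WT mice.

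Slpi showed the largest differences of the set and was called in 3 of the 4 pairwise comparisons. Treatment went with a 10.4-fold higher signal in KO mice and a 3.92-fold higher signal in WT mice, and treated KO mice stood 3.38-fold above treated WT mice. Between the untreated genotypes the difference did not pass the test. The order of the group means was treated KO (11.34), treated WT (9.58), untreated KO (7.96) and untreated WT (7.61).

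In treated KO mice the Slpi signal had a lowest value of 8.61, a median of 11.60 and a highest value of 12.44, with a mean of 11.34 ± 1.13 (SD, n = 10). The treated WT values were 8.39, 9.68 and 10.29, with a mean of 9.58 ± 0.67 (SD, n = 10). Of the 10 treated KO arrays, 9 lay above every treated WT array, and repeat 6 alone fell among the WT values. KO minus WT in treated mice was 1.76 ± 0.36 (95% interval 1.01 to 2.50, adjusted p = 0.00211). Without treated KO repeat 6 the difference was 2.06 (adjusted p = 3.81e-05).

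Untreated KO mice gave 7.29, 7.73 and 9.33 as lowest, median and highest Slpi signal (7.96 ± 0.79, SD, n = 6). Untreated WT mice gave 7.25, 7.55 and 8.05 (7.61 ± 0.35, SD, n = 6). The groups overlapped, with untreated KO repeat 6 at 8.32 and repeat 3 at 9.33 above every untreated WT array. Repeat 3, which also had the highest squamous mean (8.40) and the highest skeletal muscle mean (8.38) of its group, lay among the treated WT values. KO minus WT in untreated mice was 0.35 ± 0.47 (adjusted p = 0.967), with an interval of -0.61 to 1.31, which still holds sizeable differences in either direction.

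The treated minus untreated difference of Slpi was 3.38 ± 0.42 in KO mice (95% interval 2.52 to 4.23, adjusted p = 5.28e-06). In WT mice it was 1.97 ± 0.42 (1.11 to 2.83, adjusted p = 0.0126). All treated WT arrays lay above all untreated WT arrays, whereas treated KO repeat 6 lay below untreated KO repeat 3. Among all genes, 0.528% were higher in treated WT than in untreated WT mice without overlap. The response of KO minus that of WT mice was 1.40 ± 0.59 (0.19 to 2.62, p = 0.0248, adjusted p = 0.345), so that a larger response in KO mice did not pass the test over all genes. Without treated KO repeat 6 it was 1.71 (adjusted p = 0.0999).

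**Figure D1:**
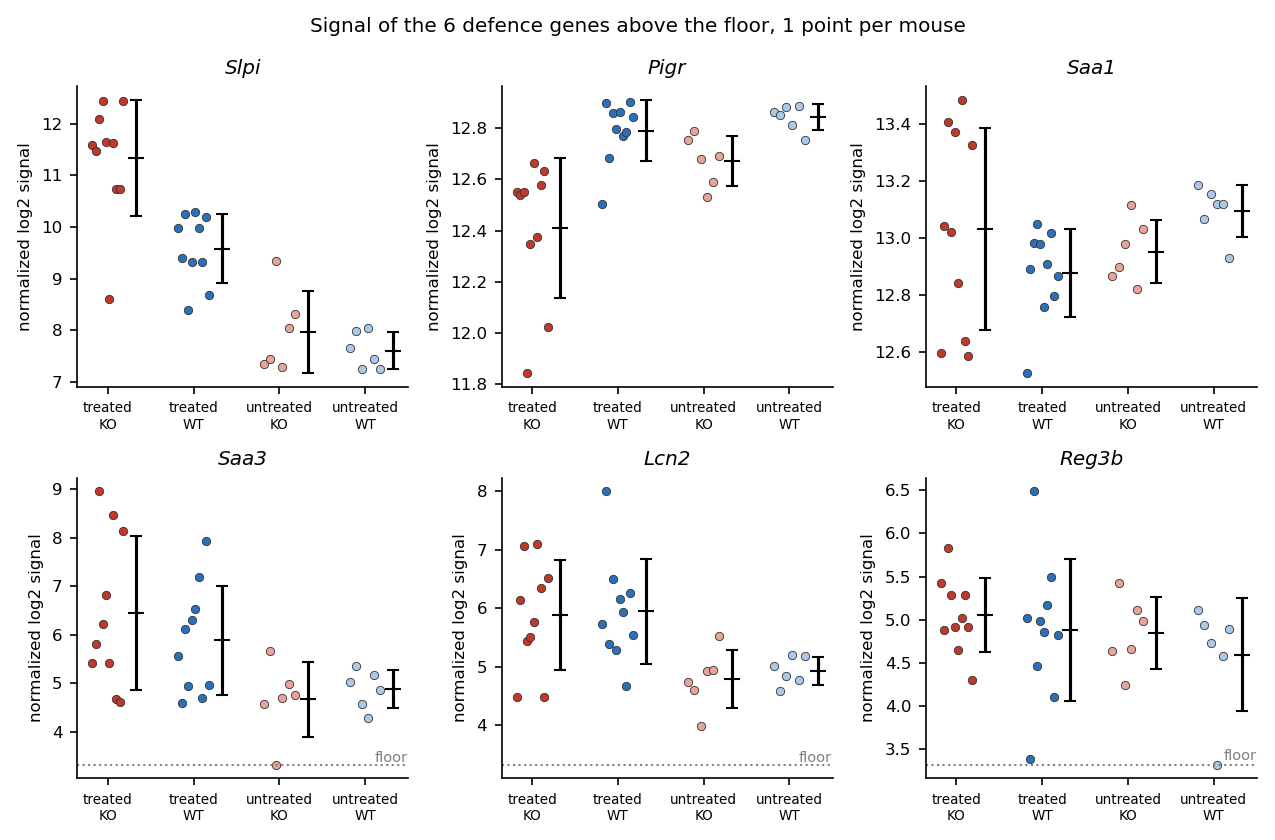
Quantile-normalized log2 signal (vertical axes, separate range for each gene) of Slpi, Pigr, Saa1, Saa3, Lcn2 and Reg3b in each mouse, by group, with bars for the mean and SD (10 treated KO, 10 treated WT, 6 untreated KO and 6 untreated WT mice). The dotted line is the floor of 3.322. On this scale 9 of 10 treated KO mice lie above every treated WT mouse in Slpi. In Pigr 9 of 10 treated WT mice lie above every treated KO mouse, which did not hold in the values as deposited.

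Markers of other cells were set beside these Slpi values. Of 11 colon epithelium markers, 5 were called higher and 0 lower in treated KO than in treated WT mice, and 6 higher and 0 lower in treated than in untreated KO mice, among them Cdx2 and Krt20. Over all genes 6.24% were called higher and 6.57% lower in the first of these comparisons, and 8.69% and 10% in the second. Of the 11 markers, 0 were higher and 1 lower in treated than in untreated WT mice, against 0.605% and 1.22% over all genes. With both foreign tissues as covariates (means of squamous and of skeletal muscle genes) Slpi stayed called, at 2.00 for KO minus WT in treated mice (adjusted p = 0.00138), 3.33 for the response of KO mice (adjusted p = 4.19e-06) and 1.71 for that of WT mice (adjusted p = 0.0467). With the RNA 3'/5' difference as covariate, the same values were 1.51 (adjusted p = 0.0049), 3.13 (adjusted p = 5.57e-06) and 1.67 (adjusted p = 0.0298). Without treated WT repeats 1 and 2, which had the highest squamous means, KO minus WT in treated mice was 1.78 (adjusted p = 0.00614). In bulk tissue, a different number of expressing cells and a different amount of RNA per cell cannot be told apart. The part of epithelial cell number in the Slpi differences was not tested.

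Pigr, the carrier of IgA, went the other way and by far less. Its signal was near the top of the scale in all groups. Treated KO mice had a lowest value of 11.84, a median of 12.54 and a highest value of 12.67 (12.41 ± 0.27, SD, n = 10), against 12.50, 12.82 and 12.90 in treated WT mice (12.79 ± 0.12, SD, n = 10). On this quantile-normalized scale 9 of the treated WT arrays lay above every treated KO array. The exception was repeat 1 at 12.50, which also had the highest squamous mean, and KO repeats 4 and 10 were the lowest. As deposited this separation did not hold: the highest treated KO array (12.74) stood above the treated WT median (12.71). The difference was -0.38 ± 0.08, a 1.30-fold lower signal (adjusted p = 0.00202).

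Untreated mice had Pigr signals of 12.53 to 12.79 in KO and 12.75 to 12.89 in WT mice (difference -0.17 ± 0.10, adjusted p = 0.783). Treatment went with -0.26 ± 0.09 in KO mice (adjusted p = 0.0406) and -0.05 ± 0.09 in WT mice (adjusted p = 0.869). The difference between these responses was -0.21 ± 0.13 (adjusted p = 0.544), so a separate behaviour of the genotypes was not shown. The call in KO mice was lost when treated KO repeat 4 (-0.20, adjusted p = 0.0587) or repeat 10 (-0.22, adjusted p = 0.0740) was left out, and likewise without treated KO repeat 5 or 7, or without untreated KO repeat 1, 2, 3 or 6 (adjusted p up to 0.0956).

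A second Pigr probe set gave -0.54 ± 0.10 for KO minus WT in treated mice (adjusted p = 0.000784 over all probe sets) and -0.42 ± 0.11 for the response of KO mice (adjusted p = 0.0107). The scaling of the arrays mattered for Pigr. KO minus WT in treated mice was -0.17 with arrays centred on their medians (adjusted p = 0.305) and -0.26 with values as deposited (adjusted p = 0.0640), so the call depended on quantile normalization while the sign did not. The treatment responses were further below 0 than under quantile normalization: in KO mice Pigr was at -0.45 with median centring (adjusted p = 0.0134) and -0.53 as deposited (adjusted p = 0.00081), and in WT mice at -0.31 (adjusted p = 0.261) and -0.30 (adjusted p = 0.168). Over all genes the share of calls that were higher in treated KO than in treated WT mice was 48.7% with quantile normalization, 74.6% with median centring and 41.8% as deposited.

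Saa1, an acute phase protein made in liver and gut, gave high signals in all groups and was called in 0 comparisons. Treated KO mice had values of 12.59, 13.03 and 13.48 (lowest, median and highest), treated WT mice 12.52, 12.90 and 13.05, untreated KO mice 12.82, 12.94 and 13.11, and untreated WT mice 12.93, 13.12 and 13.18. The treated KO group was the most spread (SD 0.35, n = 10, against 0.15 in treated WT, n = 10), with 4 arrays above all treated WT arrays. KO minus WT was 0.15 ± 0.10 in treated mice (adjusted p = 0.354), and the response of WT mice was -0.22 ± 0.12 (adjusted p = 0.386).

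With the arrays scaled otherwise, 2 of these Saa1 differences were called. Under median centring, KO minus WT in treated mice was 0.39 (adjusted p = 0.0126) and the response of WT mice -0.46 (adjusted p = 0.0468). As deposited they were 0.31 (adjusted p = 0.0405) and -0.45 (adjusted p = 0.0394), and the deposited Saa1 signals of treated WT mice, 12.24 to 12.99, all lay below those of untreated WT mice, 13.07 to 13.28, as held for 1.02% of all genes on that scale. Saa1 and Saa2 are near-identical in sequence, so the probe sets may read both. The second Saa1 probe set gave 0.31 ± 0.13 for KO minus WT in treated mice (adjusted p = 0.134).

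**Figure D2:**
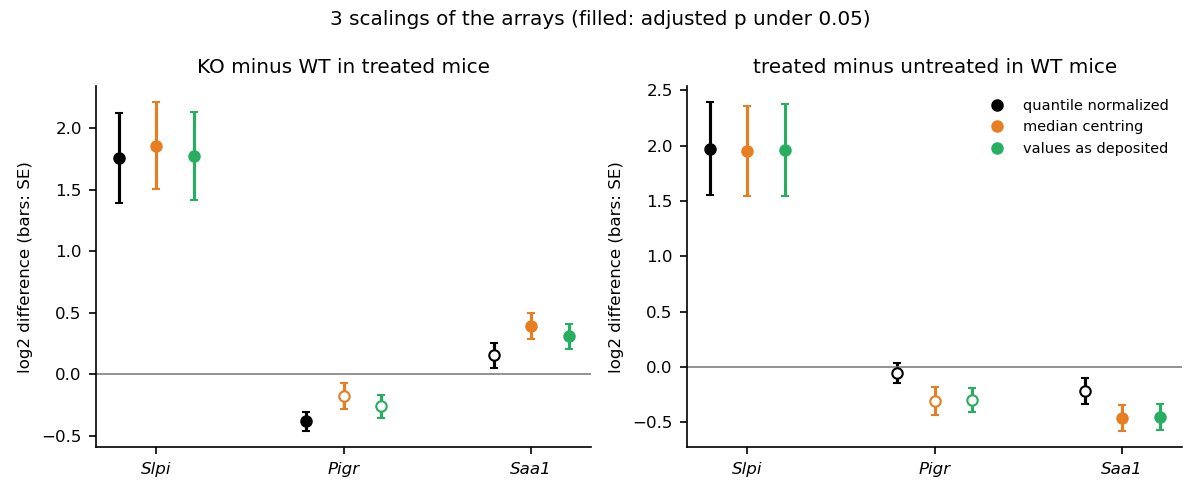
Log2 difference ± SE (vertical axes) of Slpi, Pigr and Saa1 for KO minus WT in treated mice (left) and treated minus untreated in WT mice (right) under quantile normalization, median centring and the values as deposited. Filled points have an adjusted p under 0.05; Slpi is filled under all 3 scalings, Pigr only for KO minus WT in treated mice under quantile normalization, and Saa1 only under the other 2 scalings.

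Saa3, the serum amyloid A protein of macrophages and inflamed epithelium in mice, was much dimmer and varied widely between treated mice. Treated KO values were 4.60, 6.01 and 8.96 (lowest, median and highest), treated WT values 4.59, 5.83 and 7.93, untreated KO values 3.32, 4.73 and 5.67, and untreated WT values 4.28, 4.95 and 5.36. Treated KO repeats 3, 7 and 10 lay at 8.14 to 8.96, above all treated WT arrays, while the other treated KO arrays overlapped with every group. On 1 array, untreated KO repeat 3, Saa3 was at the floor.

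Treatment went with 1.78 ± 0.59 in KO mice (3.44-fold, adjusted p = 0.0322) and 1.00 ± 0.59 in WT mice (adjusted p = 0.446) for Saa3, a difference between responses of 0.79 ± 0.83 (adjusted p = 0.771). KO minus WT in treated mice was 0.57 ± 0.51 (adjusted p = 0.537). The Saa3 call in KO mice was lost on leaving out treated KO repeat 3 (adjusted p = 0.0586), 7 (adjusted p = 0.0577) or 10 (adjusted p = 0.0586), or untreated KO repeat 1 (adjusted p = 0.0555), 3 (adjusted p = 0.0902) or 4 (adjusted p = 0.0506). The difference then lay between 1.51 and 1.79. Beside Saa3, the mean of 9 macrophage markers was 7.78 to 9.69 in treated KO, 8.37 to 9.09 in treated WT, 8.07 to 8.55 in untreated KO and 8.03 to 8.57 in untreated WT mice. Of these 9 markers 1 (Cd68) was called higher in treated than in untreated KO mice, which is near the 8.69% over all genes. The part of macrophages in the Saa3 signal was not tested.

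Lcn2 was likewise dim. Treated KO mice had 4.47, 5.96 and 7.10 (lowest, median and highest; 5.89 ± 0.94, SD, n = 10) and treated WT mice 4.68, 5.83 and 8.00 (5.95 ± 0.90, SD, n = 10). Untreated KO mice had 3.99, 4.83 and 5.52 (4.79 ± 0.50, SD, n = 6) and untreated WT mice 4.59, 4.93 and 5.20 (4.93 ± 0.24, SD, n = 6). In KO mice 6 of 10 treated arrays lay above all untreated ones and in WT mice 9 of 10, with the highest array of all in treated WT mice, repeat 2 at 8.00.

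The Lcn2 response was 1.10 ± 0.39 in KO mice (2.14-fold, adjusted p = 0.0478) and 1.01 ± 0.39 in WT mice (2.02-fold, adjusted p = 0.198), and the responses differed by 0.09 ± 0.55 (adjusted p = 0.991; 95% interval -1.05 to 1.22). The call in KO mice stood just under the threshold and was lost in 26 of the 32 fits that left out 1 array, with median centring (adjusted p = 0.0524) and with values as deposited (adjusted p = 0.0903). Treated KO and treated WT mice differed by -0.06 ± 0.34 (adjusted p = 0.972), with an interval of -0.75 to 0.63. Neutrophils also make Lcn2, and the mean of 10 measured neutrophil markers lay at 4.10 to 5.31 in treated KO, 4.06 to 5.76 in treated WT, 3.91 to 4.42 in untreated KO and 3.89 to 4.78 in untreated WT mice. Of those 10 markers, 1 (Csf3r) was called higher in treated than in untreated KO mice, which is near the 8.69% over all genes. Cxcr2 and Camp were at the floor on 27 and 28 of the 32 arrays. The part of neutrophils in the Lcn2 signal was not tested.

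Reg3b stayed near the dim end of the scale. Its signal lay between 4.31 and 5.83 in treated KO, 3.39 and 6.49 in treated WT, 4.25 and 5.43 in untreated KO, and 3.32 and 5.12 in untreated WT mice, and the groups overlapped throughout. The response was 0.21 ± 0.31 in KO (adjusted p = 0.726) and 0.29 ± 0.31 in WT mice (adjusted p = 0.752). Without untreated WT repeat 4, the array at the floor, the response of WT mice was 0.03. A second Reg3b probe set was dimmer, at the floor on 5 of 6 untreated WT and 3 of 6 untreated KO arrays, though it reached 7.21 in treated WT mice. Its response was 0.43 ± 0.40 in KO (limma, adjusted p = 0.533 over all probe sets) and 0.40 ± 0.40 in WT mice (adjusted p = 0.758). Reg3g and Nos2 were listed at the floor of 3.322 on all 32 arrays, in all 4 groups. For Reg3g, the member best known as a Myd88 target, and for Nos2 these arrays therefore gave neither a level nor a comparison.

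**Figure D3:**
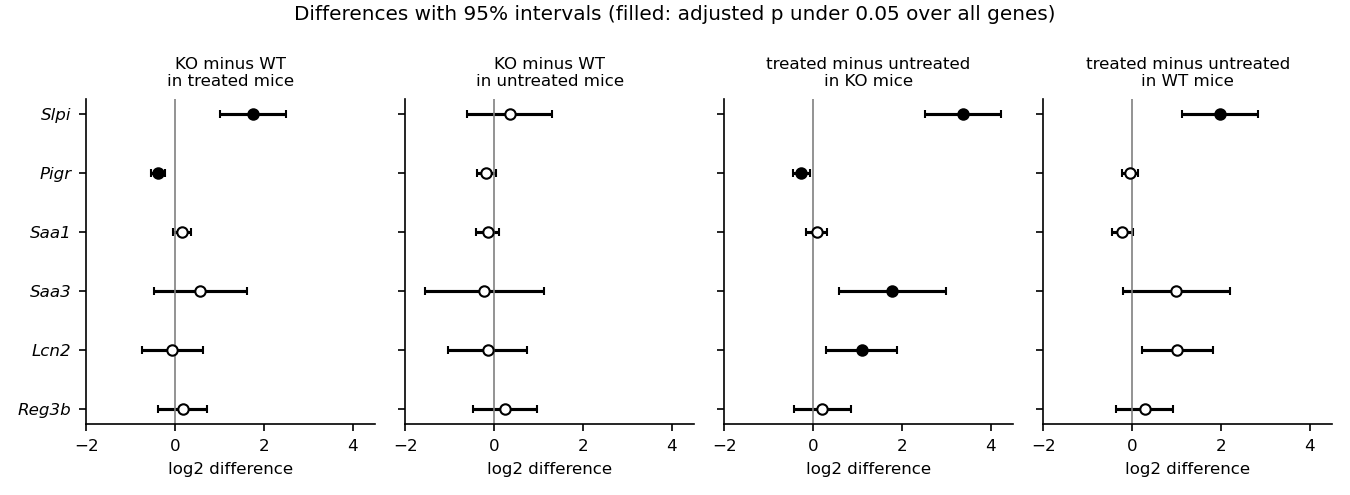
Log2 difference (horizontal axes) with its 95% interval for Slpi, Pigr, Saa1, Saa3, Lcn2 and Reg3b in each of the 4 pairwise comparisons. Filled points have an adjusted p under 0.05 over all genes: Slpi and Pigr between the treated genotypes, Slpi, Pigr, Saa3 and Lcn2 in KO mice, and Slpi in WT mice.

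Counted over the 8 measured genes, 1 was called higher (Slpi) and 1 lower (Pigr) in treated KO than in treated WT mice, where 6.24% of all genes were higher and 6.57% lower. Between the untreated genotypes 0 of 8 were called by limma, against 0.115% over all genes, and 0 had an unadjusted p under 0.05. After treatment 3 were higher (Slpi, Saa3 and Lcn2) and 1 lower (Pigr) in KO mice, where 8.69% of all genes were higher and 10% lower (46.4% of calls higher, against 65.8% with median centring). In WT mice 1 was higher (Slpi) and 0 lower, where 0.605% of all genes were higher and 1.22% lower. In the comparison of responses 0 were called by limma, against 0.055% over all genes, and 1 (Slpi) had an unadjusted p under 0.05. The median over the 6 genes above the floor was 0.65 for the response of KO mice and 0.64 for that of WT mice, against a median of 0 over all genes in each. KO minus WT in treated mice and the response of KO mice share the treated KO arrays, so their values are not separate evidence.

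Treated mice of 1 genotype differed among themselves, and some of the genes varied together. In treated KO mice Saa1 and Saa3 rose and fell together from mouse to mouse (r = 0.921, permutation p = 0.00031, adjusted p = 0.0186; rho = 0.927, adjusted permutation p = 0.0192; n = 10). Left without the 2 arrays farthest from the median, r was 0.897. In treated WT mice r was -0.227 (adjusted permutation p = 0.733), and the difference between the genotypes was not tested. These are 2 of 60 relations computed, and adjusted values are over all 60. All 60 used quantile-normalized values. They were not computed under the other scalings, on which calls of Pigr and Saa1 depended.

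Slpi and Pigr ran in opposite order across the treated KO mice (rho = -0.903, permutation p = 0.00075, adjusted p = 0.0224; r = -0.668, permutation p = 0.0448, adjusted p = 0.207; n = 10). Without the 2 farthest arrays r was -0.625, and in treated WT mice r was -0.303 (adjusted permutation p = 0.669) and rho -0.030 (adjusted permutation p = 0.978). Under quantile normalization the mouse lowest in Slpi, repeat 6, was the highest in Pigr. Repeats 4 and 10, highest in Slpi, were the lowest in Pigr. In the values as deposited, treated KO repeat 1 (12.74) stood above repeat 6 (12.66) in Pigr. By r the relation did not pass after adjustment.

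**Figure D4:**
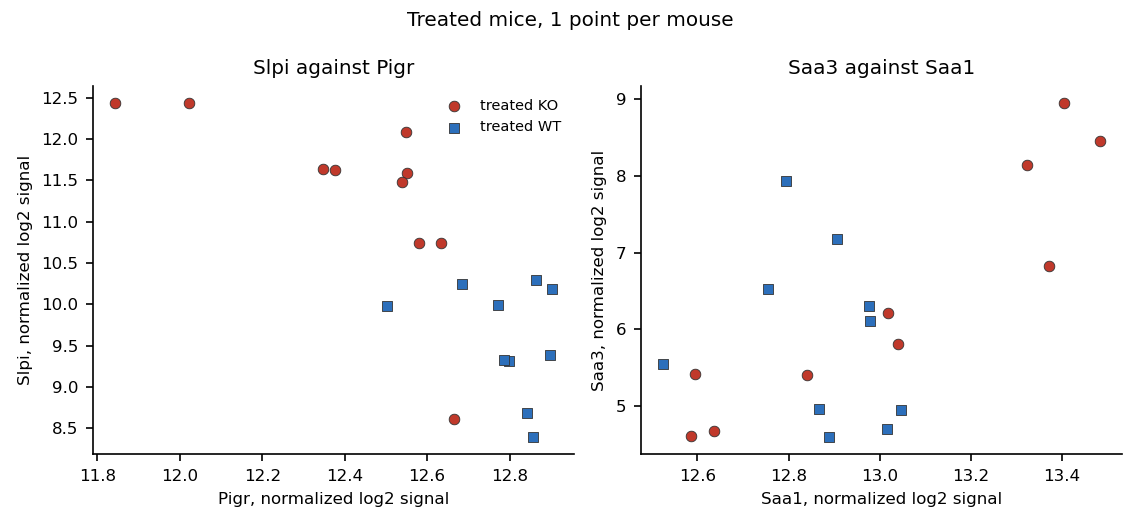
Slpi against Pigr (left) and Saa3 against Saa1 (right), as normalized log2 signals, with 1 point per treated mouse (10 treated KO, 10 treated WT). In treated KO mice Slpi falls as Pigr rises (rho = -0.903) and Saa3 rises with Saa1 (r = 0.921).

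Macrophage marker means (9 genes) went with Saa3 in treated KO mice (r = 0.840, permutation p = 0.00263, adjusted p = 0.0488; rho = 0.891, permutation p = 0.00112, adjusted p = 0.0224), and r was 0.830 without the 2 farthest arrays. They also went with Saa1 there (r = 0.832, permutation p = 0.00325, adjusted p = 0.0488; rho = 0.867, adjusted permutation p = 0.0317; r = 0.683 without the 2 farthest). Neutrophil marker means went with Lcn2 (r = 0.846, permutation p = 0.00227, adjusted p = 0.0488; rho = 0.855, adjusted permutation p = 0.0338; r = 0.694 without the 2 farthest). Close to this was Lcn2 with the macrophage mean (r = 0.82, adjusted permutation p = 0.0517) and the squamous mean (r = 0.71, adjusted permutation p = 0.162). Saa3 with the neutrophil mean had r = 0.76 (adjusted permutation p = 0.14). These relations therefore do not pair a gene with 1 cell type. Slpi passed with none of the 4 marker means in either genotype after adjustment. Its closest relation in treated KO mice was with the macrophage mean (r = 0.581, permutation p = 0.0779, adjusted p = 0.312; rho = 0.758, permutation p = 0.0149, adjusted p = 0.10), where r was 0.790 without the 2 farthest arrays. In treated WT mice 0 relations passed after adjustment, by r or by rho, and the genotypes were not tested against each other in this.

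Slpi was then set against the 10916 genes at or above the 40th percentile of mean signal, as a description. Over the 32 arrays the most alike were Capg, an actin-capping protein (r = 0.945), Ddah1, which degrades an inhibitor of nitric oxide synthases (r = 0.938), Cwh43 (r = 0.934), Mpp1, a membrane scaffold protein (r = 0.906), and Nrg1, a growth factor of the EGF family (r = 0.903). These points share the 4 groups, which alone give genes that move with treatment a high r. On deviations from the group means the order was Capg (r = 0.758), Ddah1 (r = 0.741), Anxa8, a membrane-binding annexin (r = 0.740), Ripk3, a kinase of cell death (r = 0.714), and Clic1, a chloride channel protein (r = 0.693). Capg and Ddah1 were thus in both lists.

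The other genes of these pathways are given by list, and each count stands against the shares over all genes, which were 8.69% higher and 10% lower for the response of KO mice, 0.605% and 1.22% for that of WT mice, and 6.24% and 6.57% between the treated genotypes. Of 23 other secreted antimicrobial and acute phase genes 21 were measured, and in KO mice 3 were higher and 2 lower after treatment (median 0.14), which is near those shares. Retnlb, a goblet cell protein that acts on bacteria, was 4.28 ± 1.01 higher (19.4-fold, adjusted p = 0.00324; at the floor on 10 of the 32 arrays), and Pglyrp1, which binds peptidoglycan, 0.93 ± 0.19 higher (adjusted p = 0.0012). Reg4, a lectin of secretory cells, was lower (-1.70 ± 0.36, adjusted p = 0.00128), as was Ccl28, a chemokine that draws IgA-producing cells (-0.88 ± 0.17, adjusted p = 0.000618). In WT mice 0 of 21 were called by limma (6 at an unadjusted p under 0.05; median 0.08). In treated KO against treated WT mice Retnlb (3.20 ± 0.87, adjusted p = 0.0147), Pglyrp1 (0.69 ± 0.17, adjusted p = 0.00627) and Zg16, a goblet cell lectin (0.12 ± 0.04, adjusted p = 0.0319), were higher and Ccl28 lower (-0.87 ± 0.15, adjusted p = 0.000376). Lypd8, an epithelial protein that binds flagella and the brightest of the list, did not pass in either genotype, at 0.02 ± 0.03 in KO and -0.03 ± 0.03 in WT mice.

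Among the genes that supply IgA, 7 of 8 were measured, and Jchain and Mzb1 fell in both genotypes. In KO mice Jchain, which joins IgA into the dimers that Pigr carries, was -2.27 ± 0.27 (4.81-fold lower, adjusted p = 3.35e-06), and Mzb1, a chaperone of antibody secretion, -1.67 ± 0.24 (adjusted p = 2.85e-05). In both, all treated KO arrays lay below all untreated KO arrays, as held for 0.956% of all genes. Xbp1, a factor of secretory cells, was 0.27 ± 0.09 higher (adjusted p = 0.0289), so the count in KO mice was 1 higher and 2 lower (median -0.39). In WT mice 3 were lower and 0 higher (median -0.92): Tnfrsf17, a receptor of plasma cells (-1.11 ± 0.28, adjusted p = 0.0362; at the floor on 12 of the 32 arrays), Jchain (-1.10 ± 0.27, adjusted p = 0.0283) and Mzb1 (-1.09 ± 0.24, adjusted p = 0.0162). Treated KO mice stood below treated WT mice in Jchain (-1.54 ± 0.23, adjusted p = 0.000135) and Mzb1 (-0.77 ± 0.21, adjusted p = 0.0143). Beside Pigr, plasma cell marker means were 7.44 to 8.28 in treated KO, 7.88 to 8.64 in treated WT, 8.46 to 9.14 in untreated KO and 8.68 to 9.30 in untreated WT mice. These means include Jchain, Mzb1 and Tnfrsf17, so they are not separate from the values above. The part of plasma cells in the Pigr difference was not tested.

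For the enzymes whose own probe sets gave no level, the partner genes are described. Of 10 nitric oxide and arginine genes, 3 were higher and 0 lower after treatment in KO mice (median 0.36): Ddah1 (2.35 ± 0.31, 5.09-fold, adjusted p = 1.17e-05), Nos1, the neuronal nitric oxide synthase (1.28 ± 0.27, adjusted p = 0.00114), and Gch1, which makes a cofactor of the synthases (0.83 ± 0.18, adjusted p = 0.00173). In WT mice Ddah1 alone was called (1.23 ± 0.31, adjusted p = 0.0362; list median 0.12). Between the treated genotypes Ddah1 (1.41 ± 0.27, adjusted p = 0.00112), Gch1 (0.81 ± 0.16, adjusted p = 0.00123) and Ddah2 (0.29 ± 0.09, adjusted p = 0.040) were higher in KO mice. Of 17 oxidase partners and peroxide handling genes 14 were measured. In treated against untreated KO mice 1 was higher and 1 lower, near the 8.69% and 10% over all genes. Rac1, a small GTPase of oxidase complexes, was 0.30 ± 0.06 higher (adjusted p = 0.000624) and Gpx2, an epithelial peroxidase, -0.57 ± 0.20 (adjusted p = 0.0425). In WT mice 0 were called by limma (2 at an unadjusted p under 0.05). Between the treated genotypes 1 was higher and 1 lower in KO mice, near the 6.24% and 6.57% over all genes. Duoxa2, which matures Duox2, was at 0.27 ± 0.21 in KO (adjusted p = 0.422) and -0.24 ± 0.21 in WT mice (adjusted p = 0.667).

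Slpi belongs to the WAP domain family, and 14 of 15 such genes, protease targets and other inhibitors were measured. In KO mice 3 were higher and 1 lower after treatment (median 0.34). Serpina3n, an acute phase serine protease inhibitor, was 2.64 ± 0.60 higher (6.21-fold, adjusted p = 0.00245), Plscr1, a scramblase that binds Slpi, 0.59 ± 0.13 (adjusted p = 0.00222), and Serpinb1a, an inhibitor of neutrophil proteases, 0.49 ± 0.10 (adjusted p = 0.000905). Wfdc1, another WAP domain protein, was lower (-0.62 ± 0.15, adjusted p = 0.00306). In WT mice 0 of 14 were called by limma (2 at an unadjusted p under 0.05; median 0.12). Plscr1 (0.53 ± 0.12, adjusted p = 0.00303) and Serpinb1a (0.33 ± 0.09, adjusted p = 0.0108) were also higher in treated KO than in treated WT mice. Wfdc2, the brightest of the list that did not pass, was at -0.42 ± 0.16 in KO mice (adjusted p = 0.0614).

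Of 23 upstream cytokines, receptors and factors 20 were measured, and 6 were higher and 1 lower after treatment in KO mice (median 0.34). They included Cebpb, a factor of the acute phase (0.88 ± 0.24, adjusted p = 0.0103), Stat3, which relays IL-6 and IL-22 signals (0.62 ± 0.13, adjusted p = 0.00101), Nfkbiz, a cofactor of NF-kappaB (0.61 ± 0.22, adjusted p = 0.0475), and Il17ra, the IL-17 receptor chain (0.48 ± 0.12, adjusted p = 0.00509). In WT mice 0 of 20 were called by limma (2 at an unadjusted p under 0.05; median 0.05). Treated KO mice were above treated WT mice in Il17ra (0.35 ± 0.10, adjusted p = 0.0228), Stat3 (0.33 ± 0.11, adjusted p = 0.0418) and Il10rb, a receptor chain shared by IL-10 and IL-22 (0.27 ± 0.08, adjusted p = 0.0255). Myd88, also in this list and given above, was the 1 called lower in treated KO than in treated WT mice. The 1 called lower after treatment in KO mice was another gene. In the comparison of responses limma called 0 genes of the 6 lists (1 to 4 of each at an unadjusted p under 0.05), so a call in KO mice without one in WT mice does not show that the genotypes differ.

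**Figure D5:**
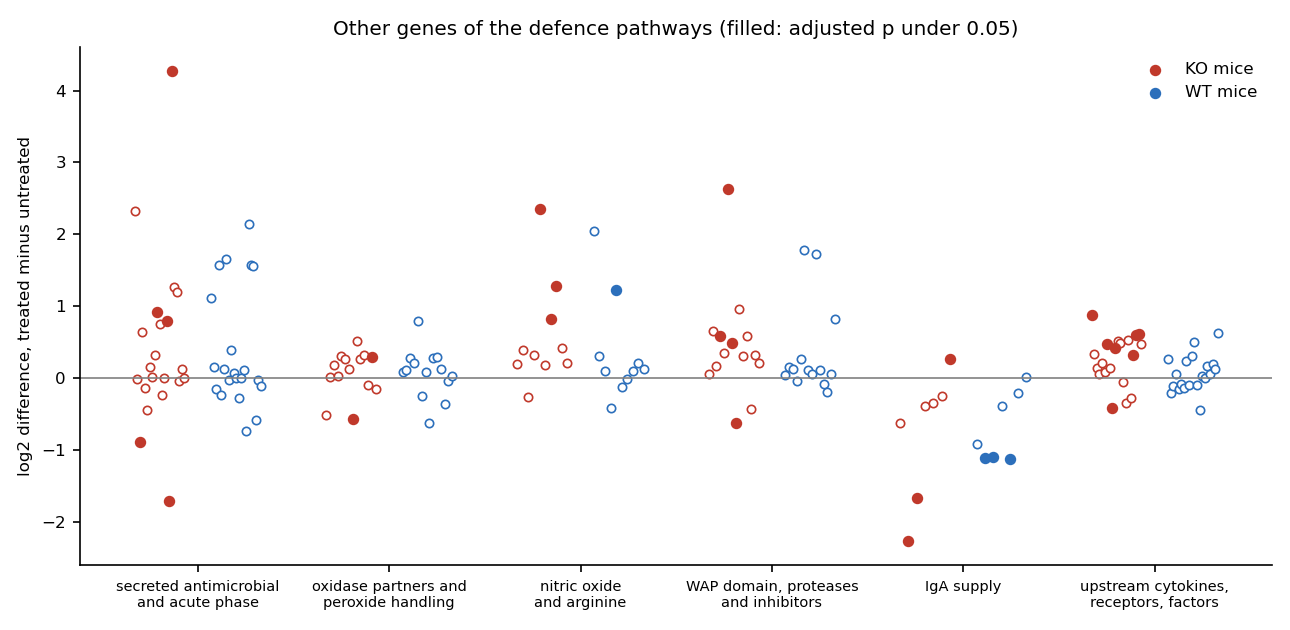
Log2 difference, treated minus untreated (vertical axis), of the measured genes of 6 lists (horizontal axis) in KO and WT mice, with 1 point per gene and filled points for an adjusted p under 0.05. The highest point is Retnlb in KO mice (4.28) and the lowest is Jchain in KO mice (-2.27).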

How the data were processed

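Distal colon RNA of 32 mice was measured on Affymetrix arrays. The authors deposited log2 probe set signals for 45101 probe sets, including 64 control sets. The probe-summarising software is not given in the sources used here. The deposited log2 values showed a 2% trimmed mean of 150.9 to 151.3 in linear signal on every array and a floor of 3.322, so each array had been scaled and low signals raised, and fold changes against the floor are understated. The number of arrays limits the precision.

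Groups came from the sample titles. Values were quantile normalized, since array medians ran from 5.17 to 5.53. Gene symbols came from the platform annotation: 34945 probe sets had 1 symbol, 932 several and 9160 none. Each gene was read from its probe set of 1 symbol with the highest mean, giving 18193 genes. One linear model with a mean for each group (limma 3.58.1, R 4.3.3; 28 residual and 1.10 prior degrees of freedom) gave two-sided tests with Benjamini-Hochberg adjustment, called under 0.05, and was tested on simulated data. Errors are standard errors unless marked SD. Relations between genes used 100000 permutations.

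The 10 genes and the pathway lists were chosen with earlier results of these data known. The 10 genes are all named. Of each list the text names, per comparison, at most the 4 called genes with the largest difference, though not every such gene. The brightest gene that did not pass is named for some lists only. Duoxa2 and the marker genes named were chosen after their values were seen. Slpi was compared with the 5 genes most like it. Repeat numbers did not pair the mice: same-numbered arrays of 2 groups correlated at -0.21 to 0.44 in their deviations, with medians near 0. Alternatives were other scalings, a filter on dim genes, other uses of probe sets, compared groups only, a replicate block, array weights, another prior, tissue and RNA integrity covariates, a threshold of 0.01, another definition of the floor, and leaving out each array.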

Additional observations from a re-analysis of the deposited data

Results flagged for a closer look

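In 2 of 24 sets of arrays (6 genes in 4 groups) the lowest array lay far from the others of its group, and chance alone marks about 1 in 20 sets. Slpi in treated KO repeat 6 was at 8.61, while the next lowest treated KO array was at 10.74, a gap of 0.556 of the range of the 10 arrays. Reg3b in untreated WT repeat 4 was at the floor, 3.32, while the next lowest of the 6 untreated WT arrays was at 4.58, a gap of 0.701 of the range. Both arrays were kept.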

How the results depend on the processing

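The Slpi differences kept their sign in all 45 alternatives (44 for the comparison of responses) and the 3 called ones stayed called in each, except that under 0.01 the response of WT mice was no longer called (1.97, adjusted p = 0.0126). Leaving out 1 array gave 1.62 to 2.06 for KO minus WT in treated mice, 3.24 to 3.68 for the response of KO mice, 1.89 to 2.10 for that of WT mice (adjusted p up to 0.0387), 0.08 to 0.49 for KO minus WT in untreated mice, and 1.27 to 1.71 for the comparison of responses (adjusted p 0.0999 to 0.458). Of the 4 genes called in KO mice, 1 was left (Slpi) with the compared groups only, with the 3'/5' covariate and under 0.01, 2 with the repeat number as a block, and 3 (Lcn2 lost, adjusted p 0.0523 to 0.0903) with median centring, as deposited, with probe sets averaged and with every probe set tested; leaving out 1 array gave 1 to 4. The block changed the count of no other comparison. In WT mice the count was 2 with median centring, as deposited (Saa1 added in both) and with array weights (Lcn2 added, 1.03, adjusted p = 0.0484), and 0 under 0.01. Leaving out 1 array gave 1 there. Between the treated genotypes it was 2 throughout, but with median centring and as deposited the genes were Slpi and Saa1, not Pigr. The cause of these changes was not tested. Fits of the compared groups only used fewer arrays and also the spread of those groups alone. Over all genes, calls ran from 1005 to 2495 for the treated genotypes (2331 as reported), 13 to 43 for the untreated (21), 1823 to 3639 for the response of KO mice (3404), 67 to 1458 for that of WT mice (332) and 0 to 258 for the comparison of responses (10), over the alternatives other than leaving out 1 array. Reg3b was too dim for the filtered fit. For genes on or near the floor the signal sets a limit below which no difference can be read.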
